A study of Mus musculus with 40 samples.

Results

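The 10 genes described here are mouse genes that Wnt signalling is known to switch on through beta-catenin: *Axin2*, *Nkd1*, *Notum* and *Rnf43*, whose products restrain the pathway, the receptor gene *Lgr5*, the genes of the DNA-binding partners of beta-catenin *Lef1* and *Tcf7*, and the genes of the transcription factors *Sp5*, *Cdx1* and *T* (Brachyury). They were listed by name as known targets, with earlier results of these data in view, and are 10 of the 55536 genes in the deposited count tables. All 10 passed the filter on low counts in both sequencing multiplexes.

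RNA was sequenced from mouse embryonic stem cells (mESCs), grown with serum and LIF, of 3 genotypes. WT cells were present as 2 biological replicates. The *Ccnc* KO cells came as D1, G2 and H5, each a separate clone, and B9, H4 and C8 were the clones with the *Cdk8* KO. Each was treated for 4 h with DMSO or with 900 nM AZD6738, an inhibitor of the kinase ATR (ATRi). The knockouts were made with CRISPR in mESCs that express Cas9 and are WT for *Atm*, and each clone grew from a single cell, so that differences between clones and the edit cannot be told apart within 1 clone. *Ccnc* encodes Cyclin C and *Cdk8* its kinase partner. Both belong to the kinase module of Mediator, the complex that links transcription factors to RNA polymerase II.

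In the Wnt pathway, ligands bound to Frizzled and LRP receptors stop a destruction complex from degrading beta-catenin, which then enters the nucleus and activates genes together with TCF and LEF proteins. Several of these genes encode inhibitors, so that the pathway limits itself. In mESCs, Wnt signalling is known for supporting self-renewal, and in the embryo it is needed for the primitive streak, where *T* is switched on. The Mediator kinase module has been linked to transcription driven by beta-catenin in other cell types.

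The 20 libraries held between 30899823 and 67274049 reads counted to genes (median 41972557). The *Ccnc* KO libraries and the *Cdk8* KO libraries were sequenced in separate multiplexes of 10 libraries, each with its own run of the same WT samples, so that both knockouts were compared with shared controls. The second WT replicate under ATRi was left out of the fits, as the authors did because it stood apart. Expression is given as CPM, the counts scaled to library size. *Ccnc* lay between 4.24 and 7.40 CPM in the *Ccnc* KO libraries against 43.6 to 45.1 in WT, and *Cdk8* between 52.3 and 64.6 CPM in the *Cdk8* KO libraries against 71.2 to 78.6 in WT. The *Cdk8* transcript was thus still present in all 3 *Cdk8* KO clones, at 0.783 times the WT level, and RNA level alone does not show the loss of that protein. The paper reports that its knockout clones were checked for complete protein loss by western blot and were genotyped. Of 8 pluripotency markers, none was at 3 or fewer counts in any group, and their summed level was 3914 to 4338 CPM in WT, 3477 to 4058 in *Ccnc* KO and 2945 to 3858 in *Cdk8* KO. Markers of the primitive endoderm, the extraembryonic lineage that mESC cultures can form, were also present: the summed level of 10 such genes was 437 to 489 CPM in WT, 753 to 956 in *Ccnc* KO and 988 to 1337 in *Cdk8* KO. In bulk RNA, fewer cells of a type and less RNA per cell cannot be told apart.

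Of the 10 genes, *Sp5* showed the largest difference between *Ccnc* KO and WT cells. It is shown here with the DNA just before its start site, since TCF and LEF proteins are known to bind a short core sequence. The core was searched on both strands with the spelling CTTTGAA, with the spelling CTTTGAT, with the spelling CTTTGTA and with the spelling CTTTGTT. The 250 bases upstream of the *Sp5* start (chr2:70474673-70474922, plus strand, RefSeq on GRCm38.p6) hold 2 matches, in capitals, which begin 222 and 104 bases before the start, the first as CTTTGTT on the minus strand and the second as CTTTGAT on the plus strand.

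Sp5 upstream region: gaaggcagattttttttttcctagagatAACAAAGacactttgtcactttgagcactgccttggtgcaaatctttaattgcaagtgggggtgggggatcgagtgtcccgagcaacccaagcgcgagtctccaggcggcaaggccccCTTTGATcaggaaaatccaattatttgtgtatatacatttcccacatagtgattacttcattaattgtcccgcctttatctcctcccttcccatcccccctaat

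A core was found in 3 of the 7 genes of the group that the RefSeq promoter table holds (*Sp5*, *T* and 1 of the 4 windows of *Lef1*), and in 16.75% of all 27025 genes of the table. By windows of this length, it was 3 of 12 for the group and 14.8% of all 32851. A gene with several windows has more chances of a match. The table does not hold *Notum*, *Lgr5* and *Cdx1*, so their upstream regions were not searched. A match of these letters is a description of the sequence and does not show that a factor binds there.

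Levels of different genes were compared as CPM per kilobase of exon. In DMSO-treated WT cells of the *Ccnc* multiplex, *Tcf7* was highest at 31.3 ± 2.0 (mean ± SD, n = 2) and *Notum* next at 25.1 ± 1.0. *Axin2* followed at 4.84 ± 0.27, *Sp5* at 4.25 ± 0.14 and *Cdx1* at 2.25 ± 0.16. Lower still were *Lef1* at 0.715 ± 0.147, *Nkd1* at 0.495 ± 0.025 and *T* at 0.237 ± 0.006. The 2 lowest were *Lgr5* at 0.0619 ± 0.0045 and *Rnf43* at 0.0458 ± 0.0095. These rest on few reads: *Lgr5* had 26 to 28 counts in these libraries and *Rnf43* 10 to 16, and *T* had 21 to 26. No pair of neighbours in this order overlapped in the *Ccnc* multiplex, but in the *Cdk8* multiplex the WT libraries of *Axin2* (4.12 and 4.78) enclosed those of *Sp5* (4.39 and 4.48), so that the order of this pair is not beyond the spread.

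**Figure D1:**
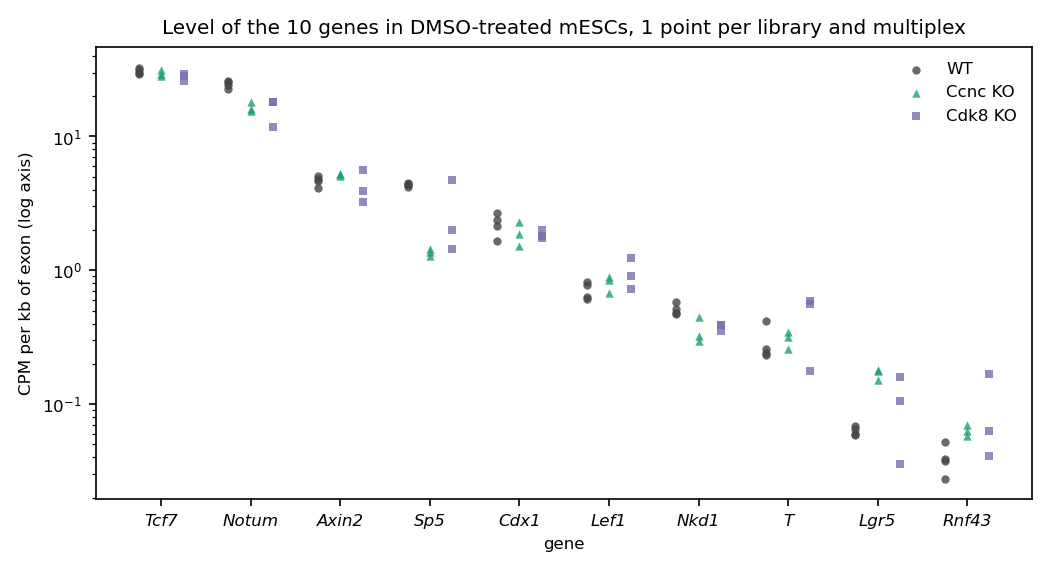
Level of each gene in DMSO-treated cells in CPM per kilobase of exon (log axis), 1 point per library in each multiplex, with WT as circles, Ccnc KO as triangles and Cdk8 KO as squares. Tcf7 and Notum lie highest and Lgr5 and Rnf43 lowest in WT, and the Ccnc KO points of Sp5 lie below all its WT points.

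Loss of *Ccnc* was followed first. Comparing 6 *Ccnc* KO with 3 WT libraries across both treatments, 2 of the 10 genes were lower (*Sp5* and *Notum*) and 1 was higher (*Lgr5*) at an adjusted p under 0.05, while among all 18577 genes tested 5.28% were lower and 7.01% higher. With a fold change above 2 or below 0.5 as well, *Sp5* and *Lgr5* remained, against 1.94% of all genes. The median log2 fold change of the 10 genes was 0.03, beside 0.0032 for all genes tested. The other 7 genes did not pass the test.

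*Sp5* (chr2:70474923-70477729, plus strand, GRCm38) encodes a zinc finger transcription factor that acts downstream of beta-catenin. In the *Ccnc* multiplex it stood at 9.13 and 8.73 CPM in the DMSO-treated WT replicates 1 and 2 and at 8.63 CPM in WT replicate 1 under ATRi. In DMSO, clones D1, G2 and H5 had 3.06, 2.70 and 2.90 CPM. Under ATRi, they had 2.95, 2.74 and 3.40 CPM. Every *Ccnc* KO library thus lay below every WT library, and the 6 knockout libraries lay close together. The fold change was 0.335 (log2 fold change -1.58 ± 0.10 SE, 95% interval -1.80 to -1.35, edgeR adjusted p = 7.5e-07).

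*Notum* (chr11:120653788-120661175, minus strand) encodes a secreted enzyme that removes the lipid from Wnt ligands and so inactivates them. It had 62.2 and 58.9 CPM in the DMSO-treated WT replicates and 48.9 CPM in WT replicate 1 under ATRi. The DMSO libraries of D1, G2 and H5 had 38.4, 43.3 and 37.6 CPM, and the ATRi libraries 42.8, 37.9 and 34.9 CPM. Here too all knockout libraries lay below all WT libraries, by a smaller margin than for *Sp5*: the fold change was 0.706 (log2 fold change -0.50 ± 0.08 SE, edgeR adjusted p = 0.00078). Groups apart in this direction were seen in 6.92% of all genes tested, and in the opposite direction, which none of the 10 genes showed, in 7.53%. Exons of *Notum* overlap those of *Notumos* and *Myadml2os* on the opposite strand. The counting used strand.

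*Lgr5* (chr10:115450311-115587780, minus strand) encodes a receptor for R-spondins, the secreted proteins that strengthen Wnt signals. It stood at 0.603 and 0.668 CPM in the DMSO-treated WT replicates and at 0.521 CPM in WT replicate 1 under ATRi. In DMSO, the clones D1, G2 and H5 reached 1.54, 1.84 and 1.80 CPM. Under ATRi, they had 0.618, 1.16 and 1.40 CPM. The DMSO libraries of the knockout were all above WT, whereas the ATRi library of D1 fell within the WT range. The fold change was 2.47 (log2 fold change 1.30 ± 0.25 SE, edgeR adjusted p = 0.0032). The call was lost with the second sequencing lane alone (log2 fold change 0.96, adjusted p = 0.065) and without WT replicate 1, which leaves 1 WT library (1.37, adjusted p = 0.136).

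The remaining inhibitors did not move past the threshold. *Axin2*, which encodes a scaffold of the destruction complex and is a widely used reporter of the pathway, had 25.6 to 27.8 CPM in WT and 27.7 to 31.6 CPM in *Ccnc* KO (log2 fold change 0.10, 95% interval -0.04 to 0.24). The interval does not reach a change of the size seen for *Sp5*. *Nkd1*, whose product binds Dishevelled, had 2.00 to 2.34 CPM in WT and 1.07 to 2.53 CPM in *Ccnc* KO (log2 fold change -0.38, edgeR adjusted p = 0.30). Both D1 libraries were within or above the WT range, while the G2 and H5 libraries were below it, and without D1 the gene was called lower (log2 fold change -0.64, adjusted p = 0.027). *Rnf43*, which encodes a ubiquitin ligase for Frizzled receptors, had 0.167 to 0.345 CPM in WT and 0.302 to 0.460 CPM in *Ccnc* KO (log2 fold change 0.71, edgeR adjusted p = 0.17).

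Neither gene of the DNA-binding partners of beta-catenin was called. *Tcf7* had 72.7 to 85.9 CPM in WT and 66.5 to 82.5 CPM in *Ccnc* KO (log2 fold change -0.05, 95% interval -0.18 to 0.08). *Lef1* had 4.53 to 7.19 CPM in WT and 4.27 to 7.77 CPM in *Ccnc* KO (log2 fold change 0.14, 95% interval -0.14 to 0.43). The transcription factor genes *Cdx1*, of the caudal homeobox family, and *T*, a primitive streak gene, overlapped between the groups as well. *Cdx1* had 3.75 to 5.69 CPM in WT and 2.64 to 5.76 CPM in *Ccnc* KO (log2 fold change -0.25, 95% interval -0.63 to 0.14). *T* had 0.539 to 1.13 CPM in WT and 0.593 to 1.12 CPM in *Ccnc* KO (log2 fold change 0.16, 95% interval -0.28 to 0.61). With WT replicate 2 under ATRi included, the estimates for *Lef1* and *T* changed sign (-0.06 and -0.05) and neither was called.

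**Figure D2:**
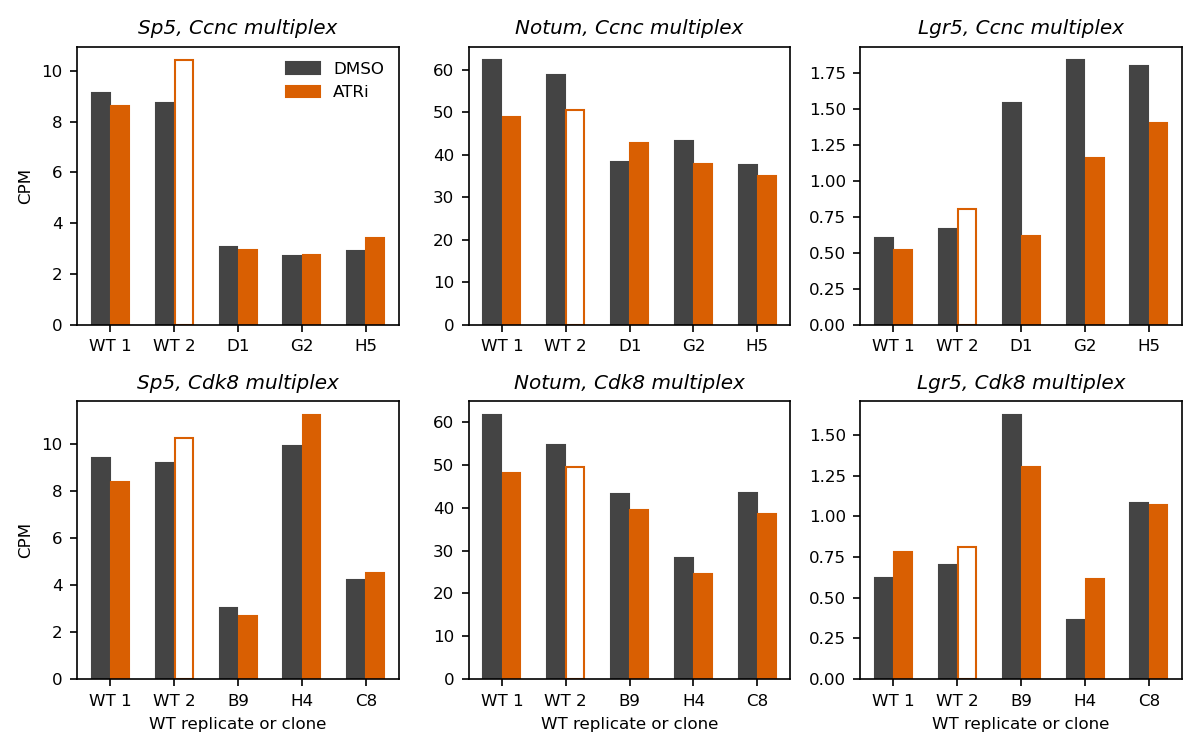
CPM of Sp5, Notum and Lgr5 in every library of the Ccnc multiplex (top row) and the Cdk8 multiplex (bottom row), with DMSO in grey and ATRi in orange. The open bar is WT replicate 2 under ATRi, which was left out of the fits. In the bottom row clone H4 stands at 9.91 and 11.3 CPM for Sp5, above the filled WT bars, and lowest of all libraries for Notum.

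In *Cdk8* KO cells, none of the 10 genes was called higher or lower, while among all 18721 genes tested 2.28% were higher and 2.03% lower. Only *Notum* had an unadjusted p under 0.05. The median log2 fold change of the 10 genes was -0.07, beside 0.0086 for all genes tested. Since this comparison shares its WT samples with that of *Ccnc* KO, the values of the knockouts are given side by side only.

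*Sp5* differed sharply between the *Cdk8* KO clones. The WT libraries of this multiplex had 9.41, 9.21 and 8.41 CPM (WT replicates 1 and 2 in DMSO and WT replicate 1 under ATRi). Clone B9 had 3.03 CPM in DMSO and 2.70 CPM under ATRi, and clone C8 had 4.20 and 4.53 CPM. Clone H4 had 9.91 and 11.3 CPM. Both libraries of B9 and C8 lay below every WT library, and both libraries of H4 above the WT libraries used. Over all 3 clones the log2 fold change was -0.61 ± 0.44 (SE, 95% interval -1.60 to 0.38, edgeR adjusted p = 0.47). Without H4 it was -1.31 ± 0.18 (adjusted p = 0.0027), against -1.58 in *Ccnc* KO. Leaving out a clone because it stands apart cannot be a test of the genotype, and both values are given for that reason.

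*Notum* was lower than WT in all 3 *Cdk8* KO clones. The WT libraries had 61.8, 54.8 and 48.1 CPM. In B9 the DMSO and ATRi libraries had 43.2 and 39.5 CPM, in C8 43.5 and 38.7 CPM and in H4 28.2 and 24.5 CPM. All 6 knockout libraries lay below the WT libraries used, a separation found in 6.07% of all genes tested, while 6.59% were apart in the opposite direction, which none of the 10 genes showed. The log2 fold change was -0.56 ± 0.17 (SE, 95% interval -0.94 to -0.18, edgeR adjusted p = 0.093), and the gene did not pass the threshold. The same estimate passed with DESeq2 (-0.56, adjusted p = 0.017) and without the filter on low counts (-0.56, adjusted p = 0.019). It also passed with WT replicate 2 under ATRi included (-0.56, adjusted p = 0.048). It did not pass with the clone as a block (-0.58, limma adjusted p = 0.12) or with DMSO libraries only (-0.61, edgeR adjusted p = 0.28). Nor did it pass with RLE scaling, with either lane alone, or without WT replicate 2, B9 or C8. Without H4, the clone with the lowest level, the change was smaller and its spread narrower (-0.38 ± 0.06 SE, adjusted p = 0.0060). *Sp5* and *Notum* were then the only genes of the 10 called, both lower, beside 3.35% of all genes.

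*Lgr5* had 0.619, 0.699 and 0.779 CPM in the WT libraries of this multiplex. It was above them in B9 (1.63 CPM in DMSO and 1.31 under ATRi) and C8 (1.08 and 1.07 CPM) and below them in H4 (0.365 and 0.617 CPM). Its log2 fold change was 0.54 (95% interval -0.38 to 1.46, edgeR adjusted p = 0.49), and 0.88 without H4 (adjusted p = 0.052).

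Clone H4 also lay at an end of the range in other genes of the group, though not always alone. *Axin2* had 17.7 and 17.8 CPM in H4, against 21.4 and 23.8 in C8, 30.8 and 33.6 in B9 and 22.7 to 26.3 in WT. *Rnf43* had 1.10 and 0.595 CPM in H4 (42 and 27 counts), above all other libraries of the multiplex, of which the WT libraries had 0.182 to 0.327 CPM. *T* had 1.36 CPM in the DMSO library and 2.65 CPM in the ATRi library of H4, the highest values of the multiplex in each treatment. In DMSO, C8 was close to H4 at 1.31 CPM, and B9 was lowest at 0.412 CPM. The 3 clones thus did not share 1 pattern across these genes. Between the 2 libraries of a clone, deviations from the group mean over 13566 genes correlated at 0.822 in B9, 0.883 in H4 and 0.485 in C8. The group mean holds all 3 clones, so 1 clone that stands apart can raise these values in the others too. Markers of the trophectoderm, the outer lineage of the blastocyst, moved with H4: the summed level of 7 such genes was 253 and 262 CPM in H4, 32.9 to 60.4 CPM in B9 and C8 and 16.9 to 18.0 CPM in WT. *Krt8* and *Krt18*, keratins of that lineage, reached up to 140 and 106 CPM in this knockout, against at most 7.18 and 6.23 CPM in WT. These 2 keratins thus held most of the sum in H4, which says little of the other genes on the list. Other marker lists were apart in H4 as well. Among 8 fibroblast markers, *Col1a1* alone reached up to 16.8 CPM in this knockout. The summed level of these 8 was 22.6 and 25.7 CPM in H4, 8.92 to 10.9 CPM in B9 and C8 and 5.78 to 7.24 CPM in WT. That of 8 pluripotency markers was 2945 and 3104 CPM in H4 against 3487 to 3858 CPM in B9 and C8, and that of 6 neuroectoderm markers 75.7 and 71.0 CPM against 95.8 to 111.7 CPM. The part of these markers in the values of H4 was not tested. The level of *Cdk8* in H4 (57.3 and 56.3 CPM) was within the range of the other 2 clones.

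The remaining genes overlapped with WT or were near it. *Nkd1* had 1.59 to 1.99 CPM in *Cdk8* KO and 1.96 to 2.65 CPM in WT (log2 fold change -0.31, edgeR adjusted p = 0.26). *Lef1* had 4.48 to 10.8 CPM in *Cdk8* KO and 4.57 to 6.87 CPM in WT (log2 fold change 0.44, adjusted p = 0.32), with C8 highest in each treatment. *Tcf7* had 67.8 to 76.3 CPM in *Cdk8* KO and 72.4 to 82.3 CPM in WT (log2 fold change -0.10, 95% interval -0.22 to 0.02). The intervals for *Axin2* (-0.51 to 0.41), *Cdx1* (-0.54 to 0.28), *T* (-0.54 to 1.29) and *Rnf43* (-0.42 to 2.17) all included 0.

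**Figure D3:**
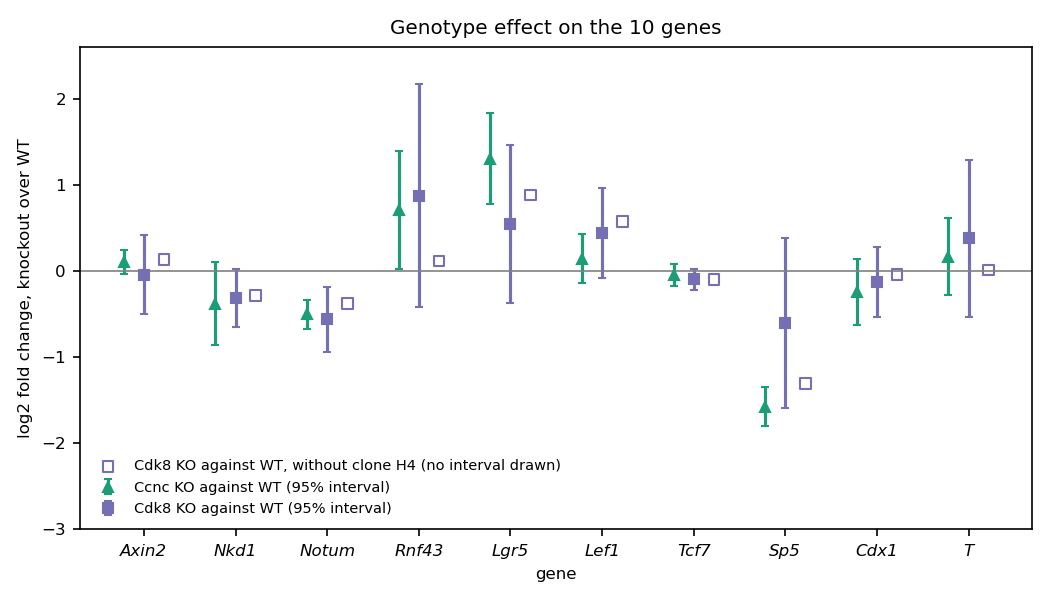
Log2 fold change of each gene in Ccnc KO (triangles) and Cdk8 KO (filled squares) against WT, with 95% intervals, and in Cdk8 KO without clone H4 (open squares, no interval). Sp5 lies at -1.58 in Ccnc KO with a narrow interval and at -0.61 in Cdk8 KO with an interval that includes 0.

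**Figure D4:**
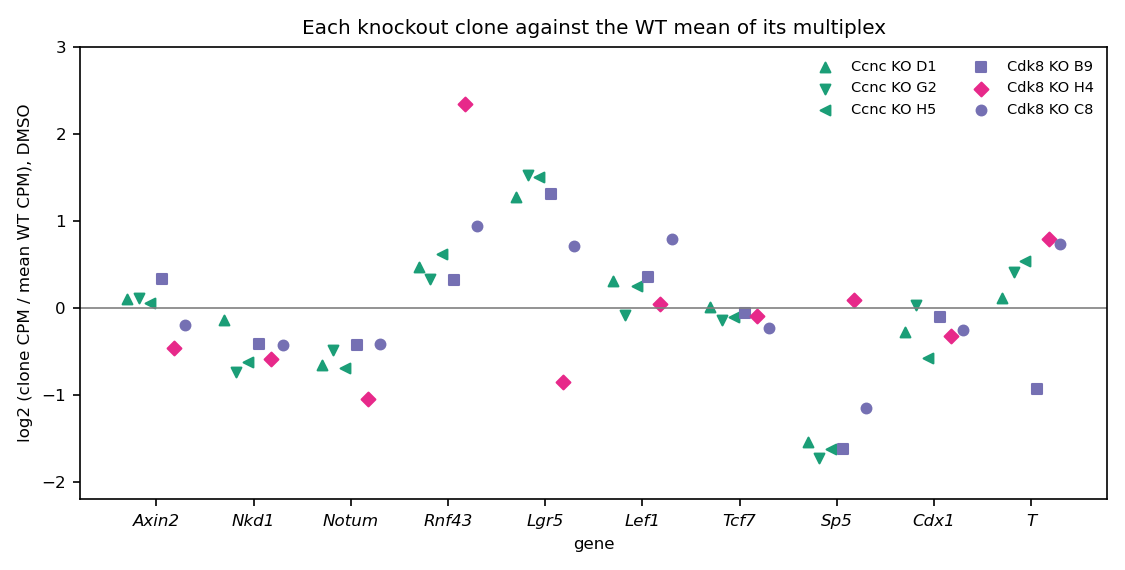
Log2 ratio of each DMSO-treated knockout clone to the mean of the 2 DMSO-treated WT libraries of its multiplex, 1 point per clone. Clone H4 (diamonds) lies apart from the other clones for Sp5, Lgr5, Notum and Rnf43.

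The 2 knockouts were also compared with each other, each relative to its own WT libraries. The WT libraries of the 2 multiplexes are runs of the same WT samples but entered this fit as separate libraries. Both libraries of a clone did too, so the intervals are narrower and the p-values smaller than the number of samples warrants. None of the 10 genes differed, and of all 18349 genes 1 was called (0.00545%), which was *Ccnc* itself, the gene edited in the *Ccnc* KO cells. *Sp5* had the smallest unadjusted p of the 10 (*Cdk8* KO minus *Ccnc* KO 0.97, 95% interval -0.02 to 1.95, unadjusted p = 0.054 and edgeR adjusted p = 0.998). For *Lgr5* the difference was -0.66 (95% interval -1.73 to 0.40). The intervals are wide, so a call in one knockout and not in the other does not show that the knockouts differ in these genes.

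Inhibition of ATR for 4 h was examined across genotypes. In neither multiplex was any of the 10 genes called, while 1.11% of all genes passed in the *Ccnc* multiplex. In that of *Cdk8*, 0.0855% passed. Since both libraries of a clone come from the same cell line, the fit was repeated with the clone or WT replicate as a block. In that fit 2 of the 10 genes were called in the *Ccnc* multiplex (*Lef1* and *Cdx1*), beside 2.43% of all genes, and 3 in the *Cdk8* multiplex (*Lef1*, *T* and *Notum*), beside 11.3% of all genes. The multiplexes share the WT samples, and these values are given side by side only.

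*Lef1* was lower under ATRi. In the *Ccnc* multiplex the DMSO and ATRi libraries had 7.19 and 4.53 CPM in WT replicate 1, 7.77 and 4.52 in D1, 5.94 and 4.27 in G2 and 7.44 and 5.68 in H5. In the *Cdk8* multiplex they had 6.87 and 4.57 CPM in WT replicate 1, 7.95 and 4.48 in B9, 6.39 and 5.36 in H4 and 10.8 and 8.99 in C8. The ATRi library was the lower of the pair in all of these. With the block, the log2 fold change was -0.58 ± 0.10 (SE, edgeR adjusted p = 0.016) in the first and -0.47 ± 0.10 (adjusted p = 0.0067) in the second, and without it -0.52 (adjusted p = 0.064) and -0.42 (adjusted p = 0.52). WT replicate 2, whose ATRi library was left out, went the other way, from 5.37 to 7.36 CPM in one multiplex and from 5.56 to 6.85 CPM in the other. With that library included and no block, the log2 fold changes were -0.36 (adjusted p = 0.41) and -0.30 (adjusted p = 0.66).

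*T* rose in every pair of libraries. In the *Ccnc* multiplex the DMSO and ATRi values were 0.560 and 1.13 CPM in WT replicate 1, 0.593 and 0.984 in D1, 0.729 and 1.07 in G2 and 0.800 and 1.12 in H5. In the *Cdk8* multiplex they were 0.598 and 1.31 CPM in WT replicate 1, 0.412 and 1.10 in B9, 1.36 and 2.65 in H4 and 1.31 and 1.38 in C8. WT replicate 2 went up as well, from 0.539 to 1.64 CPM and from 0.973 to 1.22 CPM. The gene was called in the *Cdk8* multiplex with the block (log2 fold change 0.84 ± 0.20 SE, edgeR adjusted p = 0.016). In the *Ccnc* multiplex it missed the threshold with the block (0.68, adjusted p = 0.095) and without it (0.71, adjusted p = 0.090).

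*Cdx1* was higher under ATRi in all pairs of the *Ccnc* multiplex, with 4.13 and 5.69 CPM in WT replicate 1, 3.26 and 5.76 in D1, 4.03 and 5.64 in G2 and 2.64 and 3.19 in H5 (with the block log2 fold change 0.51 ± 0.12 SE, edgeR adjusted p = 0.041; without it 0.55, adjusted p = 0.13). In the *Cdk8* multiplex the same WT replicate 1 went from 4.68 to 4.20 CPM, and the 3 knockout clones rose (with the block 0.25, adjusted p = 0.19). *Notum* fell in all pairs of the *Cdk8* multiplex (with the block -0.22 ± 0.05 SE, edgeR adjusted p = 0.0069), and in all but D1 in the *Ccnc* multiplex (with the block -0.13, adjusted p = 0.39). *Lgr5* was lower under ATRi in WT replicate 1 and in the 3 *Ccnc* KO clones of the *Ccnc* multiplex (with the block -0.63, edgeR adjusted p = 0.12). In the other multiplex the same WT replicate 1 went from 0.619 to 0.779 CPM and H4 from 0.365 to 0.617 CPM, and the change was 0.07 with the block (adjusted p = 0.87). WT replicate 2 was higher under ATRi in both multiplexes. *Sp5* stayed within a narrow range, with log2 fold changes of 0.02 ± 0.11 and 0.0028 ± 0.087 (SE) with the block.

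**Figure D5:**
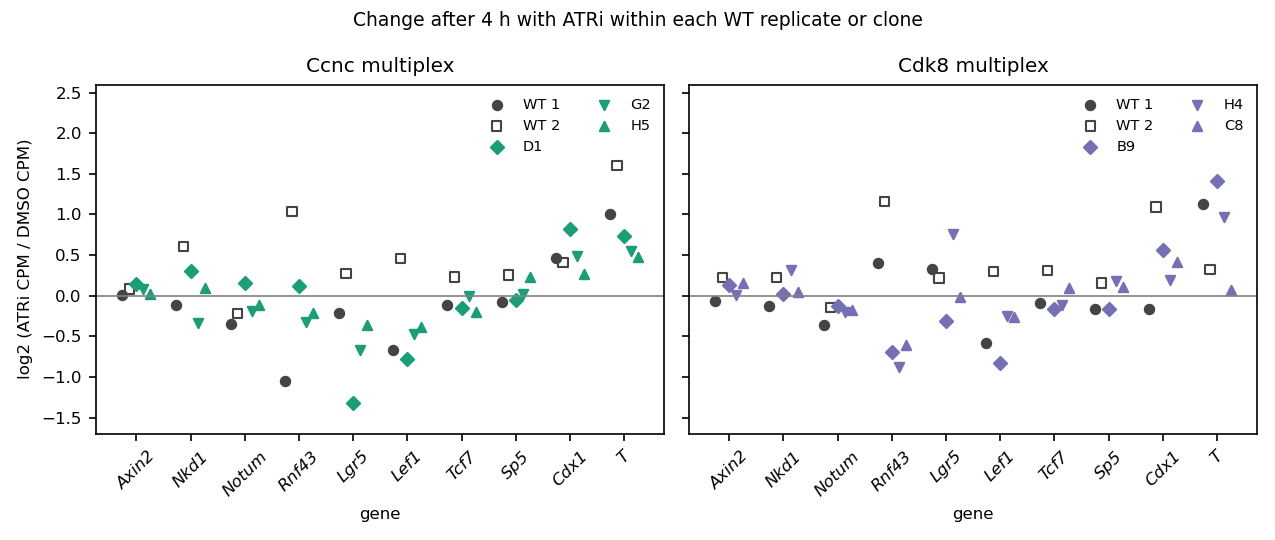
Log2 ratio of the ATRi to the DMSO library within each WT replicate and clone, for the Ccnc multiplex (left) and the Cdk8 multiplex (right). The open square is WT replicate 2, whose ATRi library was left out of the fits. Points for Lef1 lie below 0 apart from WT replicate 2, and points for T lie above 0.

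Whether the response to ATRi differed by genotype was tested as an interaction. In both multiplexes none of the 10 genes was called by edgeR, and none had an unadjusted p under 0.05. None of all genes was called in either (0%), with 395 of 18577 and 255 of 18721 at an unadjusted p under 0.05, and DESeq2 also called 0. For *Sp5* the interaction was 0.11 (95% interval -0.39 to 0.60) in *Ccnc* KO and 0.25 (95% interval -1.98 to 2.49) in *Cdk8* KO. With 1 WT library under ATRi these intervals are wide.

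Counts of other pathway genes are read against the share of all genes called, which was 7.01% higher and 5.28% lower in *Ccnc* KO, and 2.28% higher and 2.03% lower in *Cdk8* KO. Genes named below by a count of 5 or fewer, other than those of the stated rule, were chosen after their values were seen. Of the Wnt ligand genes, 3 of 13 tested rose in *Ccnc* KO (*Wnt3a*, *Wnt6* and *Wnt7b*) and none fell. *Wnt7b* had 6.20 to 7.83 CPM in WT and 9.96 to 16.2 CPM in *Ccnc* KO (2.01-fold, edgeR adjusted p = 0.00065). *Wnt6* rose 1.73-fold (adjusted p = 0.0090). In *Cdk8* KO, 1 of 14 rose (*Wnt10a*) and none fell, and *Wnt7b* was at 1.92-fold (adjusted p = 0.21). The median log2 fold change of the ligand genes tested was 0.70 in *Ccnc* KO and 0.96 in *Cdk8* KO, beside 0.0032 and 0.0086 for all genes. The rest of the 19 listed did not pass the filter on low counts. A gene passes that filter with 1 library above the cutoff, so genes near the floor can enter through knockout libraries alone. That can raise these medians, and no rise of the ligand genes as a set is drawn from them.

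Of the genes for ligand secretion and the R-spondins, *Wls* and *Porcn* were called in both knockouts. *Wls*, which encodes the carrier that brings Wnt ligands to the cell surface, had 1.11 to 1.57 CPM in WT and 2.70 to 6.06 CPM in *Ccnc* KO (3.63-fold, edgeR adjusted p = 0.00016). In the *Cdk8* multiplex it had 0.955 to 1.61 CPM in WT and 4.12 to 11.1 CPM in the knockout (5.52-fold, adjusted p = 0.012). *Porcn*, which encodes the enzyme that attaches the lipid to Wnt ligands, went the other way, to 0.772 times WT in *Ccnc* KO (adjusted p = 0.0096) and 0.660 times WT in *Cdk8* KO (adjusted p = 0.017). In all, 1 rose and 2 fell of 4 tested in *Ccnc* KO (the other one being *Rspo1*), and 1 rose and 1 fell of 5 tested in *Cdk8* KO. With the clone as a block, none of the 5 was called in *Cdk8* KO.

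The receptor genes held 1 higher (*Fzd10*, 1.19-fold, adjusted p = 0.040) and 1 lower call (*Lgr4*, 0.798-fold, adjusted p = 0.0022) among 16 in *Ccnc* KO and none in *Cdk8* KO. The call for *Fzd10* was lost with the clone as a block, and it was called in 8 of 14 settings. *Lgr4*, which encodes a second R-spondin receptor, had 110 to 123 CPM in WT, against under 1 CPM for *Lgr5*, and it fell where *Lgr5* rose. None of the 13 genes of beta-catenin, the destruction complex and Dishevelled was called in either knockout. *Ctnnb1*, the beta-catenin gene, had 941 to 1003 CPM in WT and 778 to 972 CPM in *Ccnc* KO (log2 fold change -0.12, 95% interval -0.24 to -0.01, edgeR adjusted p = 0.16). In *Cdk8* KO its log2 fold change was -0.07 (adjusted p = 0.29). Of 12 genes of TCF partners and cofactors, 1 rose in *Ccnc* KO (*Tcf7l2*, 1.58-fold, adjusted p = 0.011) and 2 fell (*Tle2*, a corepressor gene, 0.563-fold, adjusted p = 0.013, and *Pygo1*), with none called in *Cdk8* KO.

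Among 17 genes of Wnt inhibitors other than the 4 above, 4 rose and 2 fell in *Ccnc* KO, and 1 rose and 1 fell in *Cdk8* KO. *Dkk1*, which encodes a secreted blocker of LRP receptors, rose in both. It had 0.625 to 1.57 CPM in WT and 2.64 to 5.27 CPM in *Ccnc* KO (3.33-fold, edgeR adjusted p = 0.00065), and 0.784 to 1.03 CPM in WT and 2.87 to 7.93 CPM in *Cdk8* KO (5.27-fold, adjusted p = 0.0067). *Sfrp4*, a gene of the secreted Frizzled-related proteins, fell in both, to 0.477 times WT in *Ccnc* KO (adjusted p = 0.00049) and 0.545 times WT in *Cdk8* KO (adjusted p = 0.027). The calls for *Dkk1* and *Sfrp4* held with the clone as a block in both knockouts. In *Cdk8* KO, *Dkk1* was called in 12 of 14 settings and *Sfrp4* in 9. Both calls were lost there with DMSO libraries only. That for *Sfrp4* was also lost without WT replicate 2, without C8 and with the second lane only. Their opposite directions show that the inhibitor genes did not move as 1 group.

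Of 12 further genes reported as beta-catenin targets, 1 rose and 2 fell in *Ccnc* KO, and 1 rose and 1 fell in *Cdk8* KO. *Cd44*, a cell surface receptor gene, rose in both, 3.65-fold in *Ccnc* KO and 4.80-fold in *Cdk8* KO (edgeR adjusted p = 0.012 in each). It rose from only 3 to 7 counts per WT library of the *Ccnc* multiplex and 4 to 11 of the *Cdk8* multiplex. In the *Ccnc* multiplex it passed the filter on low counts through knockout libraries alone, which had up to 26 counts. Its direction in that multiplex is thus not independent of the filter. *Tdgf1*, which encodes the Nodal coreceptor Cripto, fell in both, to 0.800 times WT (adjusted p = 0.0013) and 0.820 times WT (adjusted p = 0.033). Of 11 genes of the primitive streak and early mesoderm other than *T*, 2 rose in each knockout and none fell. *Cyp26a1*, which encodes an enzyme that breaks down retinoic acid, rose in both (6.68-fold, edgeR adjusted p = 0.00020, and 6.75-fold, adjusted p = 0.012), from 0.154 to 0.409 CPM in WT to 1.13 to 2.46 CPM in *Ccnc* KO. The other one was *Eomes* in *Ccnc* KO and *Foxa2* in *Cdk8* KO. In *Cdk8* KO, the calls for *Wls*, *Porcn*, *Cd44*, *Tdgf1* and *Cyp26a1* were lost with the clone as a block. Without WT replicate 1, which leaves 1 WT library, *Wls*, *Lgr4* and *Cyp26a1* were the only calls left in these pathway lists in *Ccnc* KO, and none was left in *Cdk8* KO.

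Markers of other lineages moved with both knockouts beside these changes. Of 10 primitive endoderm markers, 9 rose in *Ccnc* KO and 10 in *Cdk8* KO and none fell. *Dab2*, an adaptor gene of that lineage, rose 6.92-fold (edgeR adjusted p = 2.9e-06) and 10.9-fold (adjusted p = 0.0025). *Gata4*, one of its transcription factor genes, rose 2.25-fold (adjusted p = 0.00033) and 3.20-fold (adjusted p = 0.0050). Without WT replicate 1, 3 of the 10 were called in *Ccnc* KO and none in *Cdk8* KO. The summed level of the list was 988 and 1039 CPM in H4, the lowest of the 3 *Cdk8* KO clones in each treatment, and 1044 to 1337 CPM in B9 and C8. Of the trophectoderm markers, 4 of 7 rose in *Ccnc* KO, where *Krt18* was at 3.42-fold (adjusted p = 0.00027), and 1 of 6 in *Cdk8* KO. Among the 4, *Elf5* was at 3 or fewer counts in the WT libraries used, so it passed the filter on low counts through the knockout. Of 4 neuroectoderm markers tested, 2 fell in *Ccnc* KO (*Pax6*, 0.392-fold, adjusted p = 1.4e-06, and *Sox1*) and none was called in *Cdk8* KO. Of the pluripotency markers, 3 of 8 fell in *Ccnc* KO (*Klf4*, 0.750-fold, adjusted p = 0.00034, *Esrrb* and *Zfp42*) and 1 in *Cdk8* KO (*Sox2*). None of the fibroblast markers was called (4 and 6 tested), and 3 of 8 were at 0 counts in all WT libraries of the *Ccnc* multiplex. The part of these lineage markers in the values of *Sp5*, *Notum* and *Lgr5* was not tested.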

How the data were processed

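Poly(A) RNA of 20 libraries was sequenced with single-end reads in 40 lane samples, 2 lanes for each library. Per the paper's methods, the authors trimmed the reads with Trimmomatic (0.38), aligned them with HISAT2 (2.1.0) to GRCm38.p6 and counted them per gene and strand with featureCounts (2.0.1), with marked duplicates ignored. The deposited values used here are raw read counts per gene and lane, without normalization. The lanes of a library were summed. Deposited log2 values from the rlog transformation of DESeq2 were not used, since they shrink low genes.

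Genes with low counts were removed with filterByExpr, and TMM-normalised counts were tested with the edgeR (4.0.16) quasi-likelihood test (R 4.3.3), on all genes of a multiplex, with Benjamini-Hochberg adjustment over all of them and a threshold of 0.05. The genotype effect was fitted with treatment as a covariate, the ATRi effect with genotype as a covariate, and the interaction with both. CPM values are TMM-scaled within each multiplex, so levels from different multiplexes were not tested against each other. The comparison of the knockouts used both multiplexes and the WT libraries of each. Blocked fits used the clone as a fixed block in edgeR for the ATRi effect and the interaction, and limma (3.58.1) with duplicateCorrelation for the genotype effect. DESeq2 (1.42.0), RLE scaling, a filter of 1 count, the inclusion of WT replicate 2 under ATRi, leaving out each replicate, DMSO libraries alone and single lanes were tried as alternatives. The tests were tested on simulated data. The simulation drew each library independently, with no effect shared by the libraries of a clone. It therefore cannot check how counting those libraries as separate affects the p-values. Replicate numbers pair the DMSO and ATRi libraries because a clone is the same cell line. The correlation of their deviations was 0.05 to 0.883 over the clones.

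The 10 genes and the other gene lists were chosen with earlier results of these data known. All 10 genes are named, other lists are given by their counts, and by name are given the genes that both knockouts moved one way past the threshold, at most 5 in a list, or otherwise up to 2 with the smallest adjusted p in either. No gene of the 10 was called in both knockouts, so that no genes of like pattern were sought. Gene positions and exon lengths came from GENCODE M21 on GRCm38, which matched all 55536 identifiers. Upstream sequences were from RefSeq. WT samples are labelled as biological replicates, with no statement of how they were grown apart. With 3 clones a group, p-values that treat the DMSO and ATRi libraries of a clone as separate are smaller than the number of clones warrants, which the blocked fits address.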

Additional observations from a re-analysis of the deposited data

Results flagged for a closer look

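One result is given here because all samples of one group went one way and all of the other the opposite way. In the *Cdk8* multiplex, *Rnf43* was higher under ATRi in both WT replicates (1.32-fold and 2.23-fold, the second with the library left out of the fits) and lower in all 3 *Cdk8* KO clones (0.620 in B9, 0.544 in H4 and 0.657 in C8). The mean log2 change in the knockout minus that in WT was -1.50. These are 6 to 42 counts per library. The test of the interaction itself, without that library, gave -1.36 (95% interval -4.04 to 1.31, unadjusted p = 0.28, edgeR adjusted p = 1.0), so the difference did not pass a test. In the other multiplex the second run of the same WT replicate 1 went down under ATRi (0.485) where it went up here. No group had 4 or more samples, so no sample was examined for standing far from its group by that rule.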

How the results depend on the processing

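*Sp5* and *Notum* were called in *Ccnc* KO under all 14 settings tried (by adjusted p alone), and 3 of the 10 genes were called in most of them, with 2 to 4 when a replicate was left out. In *Cdk8* KO, where no gene was called, 1 was called (*Notum*) with DESeq2, without the filter on low counts and with WT replicate 2 under ATRi included, and 0 to 2 when a replicate was left out, the 2 being *Sp5* and *Notum* without H4. For the ATRi effect in the *Ccnc* multiplex, 2 genes (*Lef1* and *Cdx1*) were called with DESeq2, without the filter on low counts and with the clone as a replicate block. In the *Cdk8* multiplex, 3 were called with the clone as a replicate block. The block changed no other call among the 10 genes. Calls over all genes rose with the block from 206 to 451 and from 16 to 2107 for the ATRi effect, and fell from 806 to 237 for *Cdk8* KO. They fell to 289 for *Ccnc* KO (from 2284) and to 1 for *Cdk8* KO without WT replicate 1, which leaves 1 WT library, assumed to vary like the other groups. Other counts that moved by over 1.5 times were 635 for *Ccnc* KO and 5 for *Cdk8* KO with DMSO libraries only, 1387 for *Ccnc* KO without G2, and for *Cdk8* KO 1799 with DESeq2 and 247 (without C8) to 1512 (without B9) when another replicate was left out. The ATRi counts were 651 and 378 with DESeq2, 845 and 41 without the filter, 41 in the *Ccnc* multiplex with WT replicate 2 under ATRi included, and 25 to 250 and 1 to 29 when a replicate was left out. With WT replicate 1 left out and WT replicate 2 under ATRi put back, which changes both choices at once, they were 15 and 3. Interactions were 20 without the filter in *Ccnc* KO and 4 with the block in *Cdk8* KO, and 195 and 31 under that same exchange of WT libraries. Differences between the knockouts were 4 without the filter and 11 without B9. No interaction and no difference between the knockouts was called for the 10 genes under any setting.

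Estimates near 0 changed sign: *Lef1* (-0.0625) and *T* (-0.0489) in *Ccnc* KO with WT replicate 2 under ATRi included, *Axin2* in *Cdk8* KO without WT replicate 1 (0.03) and without H4 (0.13; range -0.3113 to 0.13 over the replicates left out), *Cdx1* in *Cdk8* KO without WT replicate 1 (0.14; range -0.2577 to 0.14) and with the second lane only (0.0538), and *Lgr5* for ATRi in the *Cdk8* multiplex without H4 (-0.0609; range -0.0609 to 0.2642). None of these was called, and the cause was not tested. *Rnf43*, *Lgr5* and *T* rest on few counts, and in *Cdk8* KO the spread between clones widens the error also for *Sp5* (SE 0.443), which has more.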
